A study of Drosophila melanogaster with 3 samples.

Results

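The broad MCM regions described here are the 416 regions of 600 bp or more on the chromosome arms 2L, 2R, 3L, 3R and X and on chromosome 4 of Drosophila melanogaster. They were chosen by width, computed as end minus start plus 1, from the authors' whole-series list of MCM regions. That list holds 7029 regions, of which 6918 lie on these chromosomes, so the members were 6.01% of 6918 (exact Clopper-Pearson 95% interval 5.46% to 6.60%). The other 6502 regions, narrower than 600 bp, served for comparison.

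MCM was mapped by chromatin immunoprecipitation and sequencing (ChIP-seq) in Kc167, a female cell line of genotype se/e derived from late-stage fly embryos. No treatment is named, and the cultures were asynchronous, so all phases of the cell cycle were sampled together. The antibody was an unpurified mouse monoclonal that was made against the yeast MCM complex and recognises the Walker B motif of MCM2-7. There were 2 immunoprecipitations, from chromatin extractions 1 and 2 and called replicates 1 and 2 here, and 1 input from extraction 3, for which no values were analysed here. Each replicate had its own list of peaks, and every peak and region carried the authors' own score, whose unit is not given. No read counts were used, so depth is unknown. Separate cultures are not named for the extractions, so the spread between them may be technical.

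MCM2-7 is the ring-shaped helicase of eukaryotic DNA replication. It is loaded onto DNA as an inactive double hexamer by ORC, Cdc6 and Cdt1 before S phase, which licenses origins, and it is activated by Cdc45 and GINS when an origin fires. More complexes are loaded than are used, and loaded rings can slide along DNA, so MCM in a population of cells can occupy a stretch rather than a point. In fly cells, sites of ORC binding often lie in open chromatin near active promoters.

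Width chose the members, and score, replicate content and edges come from the same peaks, so these are descriptions without a test. Only 2 immunoprecipitations exist and regions of one genome are not replicates of a condition. For that reason no difference between broad and narrower regions was tested. Intervals given with shares cover counting error only.

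The broad regions were a long tail of the width distribution. Their median width was 734.5 bp, with the middle of the distribution between 652 and 920.5 bp, and 77 members reached 1000 bp and 12 reached 1500 bp. The narrower regions had a median width of 200 bp. The members covered 349.7 kb, which was 19.0% of the sequence covered by all 6918 regions. The limit of 600 bp fell in a continuous range. The 3 narrowest members, of 600, 601 and 602 bp, lay on X from 16807073 to 16807672, on 2L from 6473343 to 6473943 and on 2L from 1107861 to 1108462, with scores of 4.76, 5.20 and 2.38. The 3 widest of the narrower regions were all 599 bp wide, on 2L from 6612417 to 6613015 and on 3L from 17605049 to 17605647 and from 22902330 to 22902928. Their scores were 3.42, 3.35 and 2.96.

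The widest member of each arm shows what a broad region holds. On 3R, from 19151354 to 19154403, the region was 3050 bp wide with a score of 1.53. It joined a replicate 1 peak of 1680 bp with a score of 1.77 and a replicate 2 peak of 3025 bp with a score of 1.28. The peaks began close together, at 19151354 and 19151379, and ended far apart, at 19153033 and 19154403. On X, from 2194460 to 2197448, the region was 2989 bp wide with a score of 1.64. Replicate 1 had a single peak of 2926 bp (score 1.86) there, and replicate 2 had peaks of 2057 bp (1.82) and 666 bp (1.26). On 2L, from 12010170 to 12012694, the region was 2525 bp wide and scored 4.17. Replicate 1 had a single peak of 2388 bp (5.17), and replicate 2 had peaks of 1036 bp (3.68) and 1278 bp (3.67). In each of these 3 regions at least 1 replicate had a peak spanning most of the width.

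The widest members of the other chromosomes were shorter. The region on 2R from 9224107 to 9226053 was 1947 bp wide, with a replicate 1 peak of 1928 bp (3.23) and replicate 2 peaks of 960 bp (3.29) and 352 bp (2.73). The region on 3L from 639266 to 641120 was 1855 bp wide, with 1 peak in each replicate, of 1855 bp (2.51) and 1418 bp (2.28). Chromosome 4 had a single member, from 577904 to 578867, of 964 bp. There replicate 2 had a single peak of 964 bp (3.53), while replicate 1 had peaks of 187 bp (2.32) and 469 bp (4.71), neither of them broad.

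Broad regions were seldom chains of many small peaks. Of the 416 members, 274 (65.9%, interval 61.1% to 70.4%) held 1 peak of each replicate. A further 102 held 1 peak of replicate 1 and several of replicate 2, 36 held several of replicate 1 and 1 of replicate 2, and 4 held several of both. No member held more than 4 peaks in all, and 135 held 3. Among the narrower regions, 98.5% (98.1% to 98.7%) held 1 peak of each replicate. The 7 members with 4 peaks included 2L from 870425 to 871845, where replicate 1 had peaks of 730 and 461 bp and replicate 2 had peaks of 97 and 1066 bp. Another, on 2R from 15311472 to 15312748, had peaks of 186 and 835 bp in replicate 1 and of 403 and 617 bp in replicate 2. In the third by the same order, on 3L from 319289 to 319999, a replicate 1 peak of 694 bp faced replicate 2 peaks of 83, 3 and 195 bp.

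The replicates differed in how much of a broad region they covered. In 172 members (41.3%, interval 36.6% to 46.2%) each replicate had at least 1 peak of 600 bp or more. In 171 members only replicate 1 had one, in 48 only replicate 2 had one, and in 25 neither did, so that the width came from staggered or separate peaks. The widest replicate 1 peak in a member had a median of 694 bp, with a lower quartile of 615 bp and an upper quartile of 858 bp. In replicate 2 the median was 616.5 bp, with quartiles of 408 and 760 bp. Across the members, the widest peaks of the replicates had a Spearman's rho of 0.31 and a Pearson's r of 0.46. Across the narrower regions these were 0.72 and 0.74. The range of width among members was cut at 600 bp. Replicate 1 peaks covered a median of 99.1% of a member and replicate 2 peaks 85.7%, against 98.8% and 82.4% in the narrower regions. Replicate 1 set both edges in 188 members (45.2%), replicate 2 in 38 (9.13%), and each replicate set 1 edge in 190 (45.7%). The narrower regions were similar, with 46.6%, 12.8% and 40.6%. The outer left edges of the replicates lay a median of 29.5 bp apart and the outer right edges 26 bp apart, compared with 21 bp at both ends of the narrower regions. In 10% of the members, the left edges were over 219 bp and the right edges over 227 bp apart.

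**Figure D1:**
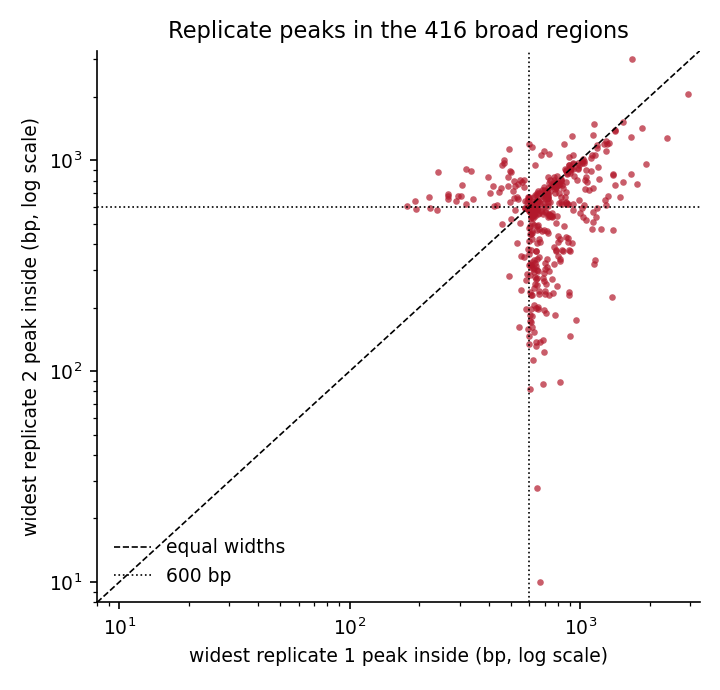
Each point is 1 of the 416 broad regions, with the widest replicate 1 peak inside it on the x axis and the widest replicate 2 peak on the y axis, both in bp on log scales; the dashed line marks equal widths and the dotted lines 600 bp. The 172 members at the upper right have a peak of 600 bp or more in both replicates, and the 171 at the lower right have one in replicate 1 only.

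One measure was independent of the choice of a peak, namely the width found in the other replicate. Replicate 1 had 346 peaks of 600 bp or more and replicate 2 had 223. Of the 346, 99.4% (344) overlapped some replicate 2 peak, and 173 (interval 44.6% to 55.4%) overlapped one that was itself 600 bp or more. Of the 10010 narrower replicate 1 peaks, 66.3% overlapped a replicate 2 peak and 0.809% (0.643% to 1.00%) a wide one. In the opposite direction, all 223 wide replicate 2 peaks overlapped a replicate 1 peak, and 78.5% (175, interval 72.5% to 83.7%) overlapped a wide one. Of the 7948 narrower replicate 2 peaks, 3.37% (2.99% to 3.79%) did. The wide peaks of each replicate thus had wide partners in the other more often than the narrower peaks, although the 2 directions share the same overlaps. The narrower peaks include those without any partner, as 86.6% in replicate 2 had one. Neighbouring peaks of one genome are not independent, so the intervals cannot decide on agreement in width, which was not tested.

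The share with a wide partner was larger for wider peaks. For replicate 1 it was 4.65% at 400 to 599 bp, 36.4% at 600 to 799 bp, 68.1% at 800 to 999 bp and 78.3% at 1000 bp or more. For replicate 2 the shares of the same classes were 17.1%, 75% (102 of 136), 79.6% and 90.9%. The median width of the partner was 602 bp for wide replicate 1 peaks and 752 bp for wide replicate 2 peaks. Wide peaks also broke up in the other replicate. Several replicate 2 peaks lay under 28.0% (97) of the wide replicate 1 peaks and under 45.0% of those of 1000 bp or more. Several replicate 1 peaks lay under 15.2% (34) of the wide replicate 2 peaks. Only 2 of the 3373 replicate 1 peaks without a replicate 2 partner on these chromosomes were 600 bp or more. Of the 1069 unpartnered replicate 2 peaks none was, which allows a share of up to 0.281% (3 counts of the total). Among all peaks on these chromosomes, 346 of 10356 in replicate 1 and 223 of 8171 in replicate 2 were that wide. Peaks under 200 bp had a partner in 53.5% of cases in replicate 1 and 81.3% in replicate 2.

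Scores of broad regions ran from 1.22 to 7.78, and those of the narrower regions from 1.27 to 11.1, so the top of the range held no member. The median score was 2.87 for the members and 2.54 for the narrower regions, a ratio of 1.13. In most members the score equalled the mean of the peaks inside, so a replicate with several peaks there weighed more. Several replicate 2 peaks beside 1 of replicate 1 lay in 24.5% of the members and 1.15% of the narrower regions. The replicates may therefore not weigh quite alike in the scores of the 2 groups. In the replicate lists, peaks of 600 bp or more had a median score of 3.20 in replicate 1 and 2.67 in replicate 2, and narrower peaks had 2.56 and 2.31. The ratio of the medians was 1.20 ± 0.0682 (SD, n = 2) and above 1 in both replicates. By width class, the median score was 2.14 below 100 bp, 2.35 at 100 to 199 bp, 2.72 at 200 to 299 bp and 2.91 at 300 to 399 bp. It then stayed near that level, with 2.96 at 500 to 599 bp, 2.90 at 600 to 799 bp, 2.84 at 800 to 999 bp, 2.72 at 1000 to 1499 bp and 2.74 above that. Across the 6502 narrower regions, width and score had a Spearman's rho of 0.34 and a Pearson's r of 0.27. Across the 416 members these were -0.05 and -0.08. Width and score are computed from the same peaks, and the range of width among members was cut at 600 bp.

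**Figure D2:**
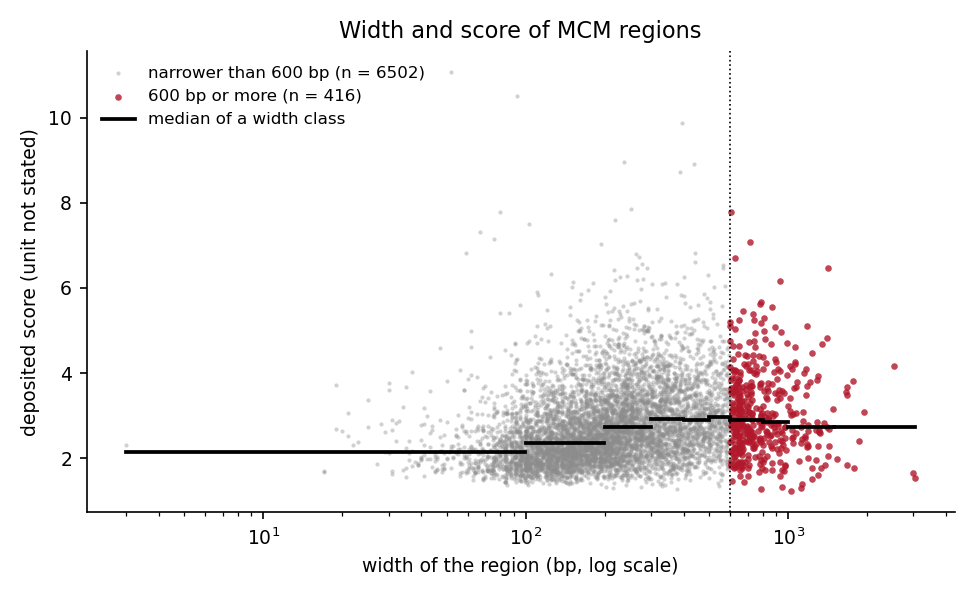
Width in bp on a log scale against the deposited score for all 6918 regions, with the 416 broad regions in red, the narrower ones in grey and black bars at the median score of each width class. The medians climb from 2.14 to 2.91 up to 399 bp and stay between 2.72 and 2.96 beyond, and the 2 widest regions lie near the bottom of the score range.

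Broad regions took a larger share of the regions at the top of the score range and were also present at the bottom. Among the 100 highest-scoring of the 6918 regions, 11 were broad, and among the 100 lowest-scoring, 9 were (intervals 5.62% to 18.8% and 4.2% to 16.4%), against 6.01% of all regions. These intervals include the overall share at the lower end, and neither was tested. When all regions were ordered by score into 10 classes of about equal size, the broad share was 10.7% (8.49% to 13.2%) in the highest class and 2.46% (1.44% to 3.9%) in the third lowest. In the lowest class it was 4.19% (2.82% to 5.96%). That lowest class held 10 regions of 1000 bp or more, the third lowest 1 and the highest 13.

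The highest-scoring member, on 2R from 18565579 to 18566184, was 606 bp wide with a score of 7.78, from 8.90 in replicate 1 and 6.67 in replicate 2. The second, on X from 21151795 to 21152510, scored 6.79 and 7.37 in replicates 1 and 2 over peaks of 716 and 463 bp. The third, on 2L from 2161201 to 2161829, scored 6.22 and 7.20. In both of these replicate 2 was the higher, unlike in 370 of the 416 members (88.9%), where replicate 1 was. Replicate 1 was also the higher in 87.1% of the 6502 narrower regions. The fourth, on 2R from 19600251 to 19601663, was 1413 bp wide, with a replicate 1 peak that scored 7.30 and replicate 2 peaks that scored 6.51 and 5.60. The fifth, on 2L from 12006907 to 12007835, had peaks of 906 and 929 bp with scores of 6.78 and 5.56. It lay 2334 bp from the widest region of that arm.

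At the other end, the lowest-scoring member lay on 2R from 16158160 to 16159182. It was 1023 bp wide and had a peak of 1013 bp (1.24) in replicate 1 and one of 994 bp (1.20) in replicate 2. The next, on 3R from 19148923 to 19149710, had peaks of 724 bp (1.38) and 736 bp (1.18). The third, on 3R from 18878820 to 18879936, had a replicate 1 peak of 1043 bp (1.28) and replicate 2 peaks of 610 bp (1.34) and 248 bp (1.26). Low scores thus came with wide peaks in both replicates at these 3 regions. The mean scores of the replicates in a member had a Spearman's rho of 0.92 and a Pearson's r of 0.91 over the 416 members, and 0.88 and 0.89 over the narrower regions. Both replicates are in every region by construction of the list.

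Broad regions made up a larger share of the regions on X than on each autosomal arm. On X, 113 of 1470 regions were broad (7.69%, interval 6.38% to 9.17%), and on the 4 large autosomal arms together 302 of 5413 (5.58%, 4.98% to 6.22%), a ratio of 1.38. The share was 6.30% on 2L (72 of 1142), 5.81% on 3L (80 of 1376), 5.38% on 3R (86 of 1598) and 4.93% on 2R (64 of 1297). Chromosome 4 had 1 of 35. In the replicate lists, 4.48% and 3.40% of the X peaks were 600 bp or more in replicates 1 and 2, against 3.07% and 2.56% on the autosomal arms. The share on X was 1.46 and 1.33 times that on the autosomal arms, a mean of 1.39 ± 0.0910 (SD, n = 2), above 1 in both. Per Mb of the stretch between the outermost peaks of each arm, there were 5.05 broad regions on X and 3.14 on the autosomal arms. The autosomal arms lay close together on that scale, from 3.03 on 2R to 3.28 on 3L.

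X and its nearest neighbour in this order were not separated by counting error. The interval of the broad share on X overlapped those of 2L (4.97% to 7.87%), 3L (4.64% to 7.18%) and 3R (4.33% to 6.60%), but not that of 2R (3.82% to 6.26%). In replicate 2 the share on 2L, 3.24%, was close to the 3.40% on X. The interval on X there, 2.60% to 4.36%, overlapped that of the 4 large autosomal arms together, 2.18% to 2.98%. In replicate 1 the intervals, 3.64% to 5.44% and 2.71% to 3.47%, did not overlap. The median width of members was 782 bp on X and between 709 bp (3L) and 758 bp (2L) on the large autosomal arms. Their median score was 2.83 on X, within the range of the large autosomal arms, from 2.74 on 3R to 3.08 on 2R. Broad regions held 23.4% of the covered length on X and from 15.8% (2R) to 20.3% (2L) on the large autosomal arms.

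**Figure D3:**
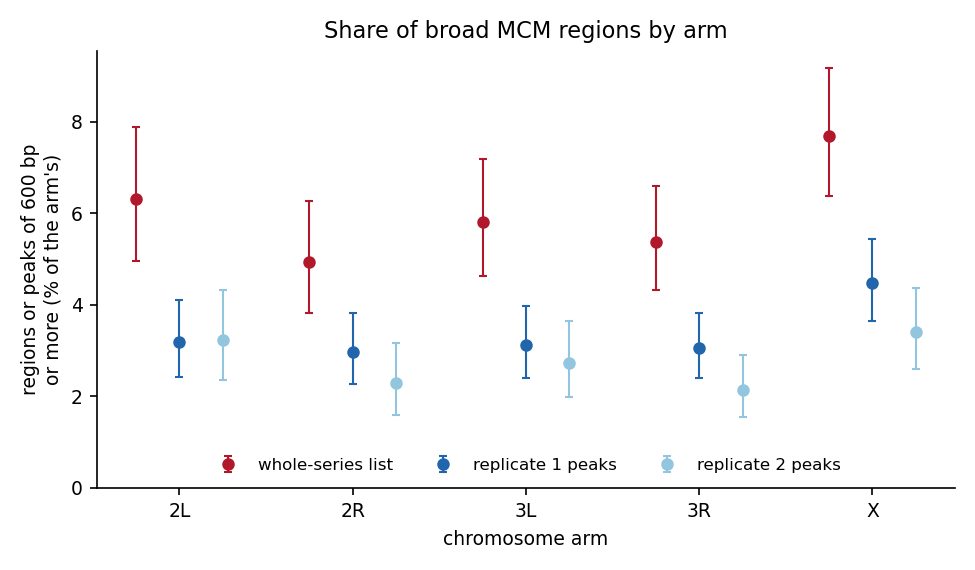
Share of regions or peaks that are 600 bp or more on each major arm (y axis, %), for the whole-series list and for the peaks of each replicate, with exact 95% binomial intervals that cover counting error only. X is highest in each of the 3 lists, at 7.69%, 4.48% and 3.40%. Its intervals overlap those of all other arms shown, except that of 2R in the whole-series list.

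Broad regions lay closer to other regions than the narrower regions did as a whole. The members of 600 to 799 bp, however, were not closer than the regions just under 600 bp. The distance from a member to the nearest region of any width, counted in bases between their edges, had a median of 1.06 kb (quartiles 0.410 and 3.44 kb), against 1.98 kb (0.506 and 6.69 kb) for the narrower regions, a ratio of 0.533. By width class, the median was 2618 bp at 100 to 199 bp, 1681 bp at 200 to 299 bp, 1154 bp at 400 to 499 bp and 1140 bp at 500 to 599 bp. Among the members it was 1370.5 bp at 600 to 799 bp (252 regions), 1109 bp at 800 to 999 bp, 732 bp at 1000 to 1499 bp and 355 bp above that (12 regions). A neighbour lay within 500 bp of 29.1% of the members (24.8% to 33.7%) and of 24.7% of the narrower regions (23.7% to 25.8%). Within 10 kb the shares were 92.1% (89.0% to 94.5%) and 82.5% (81.5% to 83.4%). Wide peaks of the replicates had a nearest peak at a median of 626 bp in replicate 1 and 803 bp in replicate 2, against 1084.5 and 1432.5 bp for narrower peaks. Centre to centre, where the width of a region counts in its distance, the ratio was 0.794. A member had a median of 3 other regions with a centre within 10 kb, and a narrower region had 2.

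Peaks found in a single replicate were also nearer to the members. An unpartnered replicate 1 peak lay within 1 kb of 26.9% of the members (22.7% to 31.5%) and of 18.1% of the narrower regions (17.1% to 19.0%). For unpartnered replicate 2 peaks the shares were 7.45% (5.12% to 10.4%) and 7.06% (6.45% to 7.71%), which counting error does not separate. The median distance to such a peak was 3122 bp for members and 6370 bp for narrower regions in replicate 1, and 14944 and 25364 bp in replicate 2.

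Broad regions lay closer to each other than narrower regions lay to them. The distance from a member to the nearest other member had a median of 23.7 kb (quartiles 2.36 and 152 kb, 415 members with another on their arm), whereas a narrower region had its nearest broad region at 99.4 kb (27.2 and 222 kb), a ratio of 0.239. Another member lay within 5 kb of 31.3% of the members (26.9% to 36.0%), against 8.64% of the narrower regions (7.97% to 9.35%). Within 1 kb the shares were 15.4% (12.1% to 19.3%) and 2.75% (2.37% to 3.18%). The closest neighbour was itself broad for 18.0% of the members (14.5% to 22.1%) and for 5.41% of the narrower regions (4.88% to 5.99%). In the replicate lists, the median distance from a peak of 600 bp or more to the next such peak on either side was 27.2 kb in replicate 1 and 27.6 kb in replicate 2. From narrower peaks it was 115 and 206 kb. The ratio was 0.236 in replicate 1 and 0.134 in replicate 2. With only the next broad region downstream counted it was 0.585, and among the 50% of regions with the higher score it was 0.402.

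Nearness to other broad regions was graded with width. Another broad region lay within 5 kb of 6.43% of the regions of 100 to 199 bp, 11.3% of those of 300 to 399 bp and 17.7% of those of 500 to 599 bp. Among the members the share was 24.2% at 600 to 799 bp, 32.2% at 800 to 999 bp, 50.8% at 1000 to 1499 bp and 66.7% (12 regions in the class) above that. The gradient crossed 600 bp without a step. By score, the 104 lowest-scoring members, at 1.22 to 2.37, had another member within 5 kb in 40.4% of cases (30.9% to 50.5%). The 104 highest-scoring, at 3.67 to 7.78, had one in 30.8% (22.1% to 40.6%), and both groups of 104 between them had 26.9%. These intervals overlap.

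**Figure D4:**
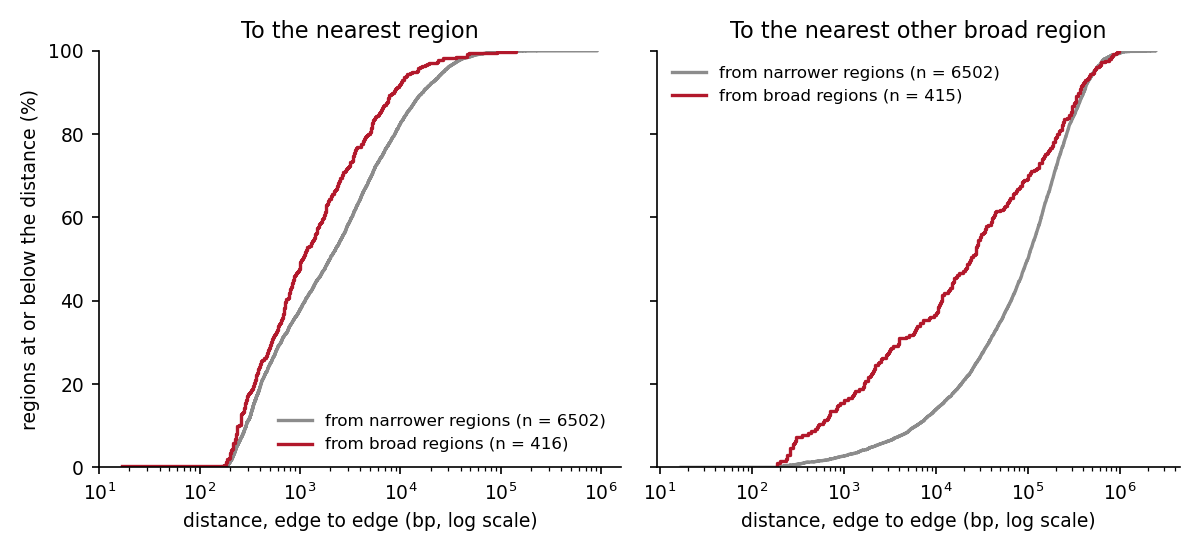
Cumulative share of regions (y axis, %) at or below a given edge-to-edge distance (x axis, bp on a log scale) to the nearest region of any width on the left and to the nearest other broad region on the right. The red curve of the broad regions lies left of the grey curve of the narrower ones in both, with medians of 1.06 against 1.98 kb on the left and 23.7 against 99.4 kb on the right.

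Runs of broad regions followed from this. Linked at gaps of at most 5 kb, 130 of the 416 members (31.3%) formed 50 runs, of which 37 were pairs and 13 held more. Linked at 1 kb, 64 members (15.4%) formed 28 runs, 25 of them pairs. Among the 6 runs with 4 or more broad regions at gaps of at most 5 kb, the most fully covered lay on X from 2186536 to 2199590, where 8 broad regions and no other region covered 75.1% of 13.1 kb. Their widths ran from 657 to 2989 bp. Their scores were low, from 1.39 to 3.11 with a median of 1.87. In replicate 1 the mean scores of these regions ran from 1.44 to 3.36 (median 2.04) and in replicate 2 from 1.35 to 2.86 (median 1.72). It contained the closest pair of members, 185 bp apart, made of the region of 2989 bp and one of 969 bp from 2197634 to 2198602.

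The run on 3L from 627910 to 649630 also held 8 broad regions, among 13 regions in 21.7 kb. Their scores spanned 1.32 to 4.06 with a median of 2.35, and replicate medians were 2.59 and 2.27. The highest of them, from 627910 to 628616, scored 4.47 in replicate 1 and 3.66 in replicate 2. On 2L from 19154665 to 19166320, 6 broad regions among 8 in 11.7 kb scored 1.68 to 2.66. On X from 12552904 to 12562278, 5 among 6 in 9.38 kb scored 1.79 to 3.85. All 4 runs had medians below the 2.87 of the members as a whole.

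The runs of 4 broad regions on 3R differed from each other in score. From 12056976 to 12068687 the scores were 2.63, 4.70, 4.68 and 4.45, with 2.94, 4.88, 5.23 and 4.69 in replicate 1 and 2.31, 4.52, 4.12 and 4.21 in replicate 2. From 19148923 to 19160614, which includes the widest region of the list, they were 1.28, 1.53, 1.77 and 1.57. Replicate 1 gave 1.38, 1.77, 2.09 and 1.63 there and replicate 2 gave 1.18, 1.28, 1.44 and 1.52. The values of the 2 runs did not overlap in either replicate, although both span 11.7 kb and both hold regions of over 1000 bp. The low-scoring run held no narrower region between its members, and the high-scoring run held 4 narrower regions.

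**Figure D5:**
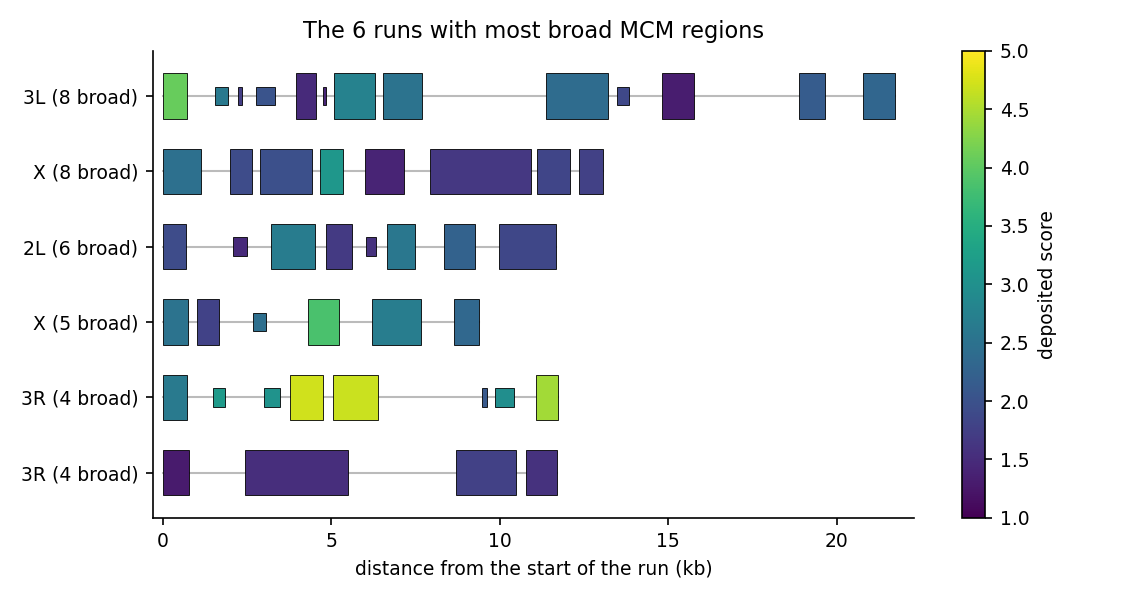
The 6 runs with most broad regions at gaps of at most 5 kb, each drawn from its own start (x axis, kb), with tall boxes for broad and short boxes for narrower regions, coloured by the deposited score. The upper run on 3R holds broad regions with scores of 2.63 to 4.70 and the lower one of 1.28 to 1.77, while the 8 regions on X fill 75.1% of their run.

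On a fixed grid of 100 kb, 260 of the 1073 windows with any region held a broad one, and 174 of these held 1. There were 7 windows with 6 or more, and they held 56 members. The leading windows, with 9 broad regions each, were 3L from 600001 to 700000 (of 23 regions), 3R from 12000001 to 12100000 (of 32) and X from 2100001 to 2200000 (of 16). The share of broad regions was 39.1%, 28.1% and 56.3% in these windows. Their broad regions had median scores of 2.40, 3.66 and 1.91. Without the 7 windows the ratio of median distances to the nearest broad region was 0.323 and that to the nearest region of any width 0.649, an alternative chosen after the data were seen.

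Other close pairs were tight. On X from 18757661 to 18758490 and from 18758680 to 18759299, members of 830 and 620 bp lay 189 bp apart. Replicate 1 had peaks of 828 bp (2.49) and 598 bp (2.07) there, and replicate 2 had one of 792 bp (2.75) followed by peaks of 107 and 146 bp. On 2R from 2549291 to 2549999 and from 2550203 to 2550877, members of 709 and 675 bp lay 203 bp apart with unequal scores. The first scored 3.51 in replicate 1 and 2.67 in replicate 2, and the second 6.16 and 4.76.

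A few broad regions stood alone. The most isolated, on 3R from 1833170 to 1834398, was 1229 bp wide and 141119 bp from any other region. Replicate 1 had a single peak of 1229 bp (3.73) there, and replicate 2 had peaks of 192 bp (6.15) and 469 bp (3.50). The next, on 2L from 22354026 to 22354735, was 92650 bp from its neighbour and came from staggered peaks of 530 bp (2.15) and 405 bp (1.55), neither of them broad. The third was the single member of chromosome 4, 48518 bp from its neighbour.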

How the data were processed

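The files were peak lists in which, per the file headers, positions are on FlyBase release 5.1, and PeakSeq is named as the caller. No aligner, caller setting or role of the input was found in the labels or headers. The deposited score of each peak or region is the authors' own, with no stated unit. It was used to describe and rank within a list. Starts and ends are as the authors deposited them, counted from 1. Depth is unknown.

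All 6918 regions held peaks of both replicates. In 376 of the 416 members the score equalled the mean of the peaks inside, at a tolerance of 0.0001. The other 40 all held several replicate 1 peaks and differed by at most 0.187. Of these 40, 36 equalled the mean of the 2 replicate means. A single rule behind all scores was not sought. The regions and scores of the list follow the replicate peaks, so the list was not counted as a measurement of its own.

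Replicate peaks were assigned to a region at an overlap of 1 bp or more. Distances are bases between edges, to the nearest other region on either side. For shares, Clopper-Pearson bounds at 95% are given, except that the limit beside a count of 0 is 3 counts of the total. The overlap and distance routines were tested on simulated data. Python 3.11.15, numpy 2.4.6, pandas 2.3.3 and scipy 1.17.1 were used. Named regions are the widest member per chromosome, the 5 highest and 3 lowest scores, the 3 with most replicate peaks, the 3 closest pairs, the 3 most isolated, the 3 windows with most members and 3 regions on each side of 600 bp, plus the leading runs, which were chosen after their values were seen. The members and measures were chosen with earlier results of these data known. The gene table at hand is of release 6, so no gene is named, and sequence was not used here.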

Additional observations from a re-analysis of the deposited data

Results flagged for a closer look

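Broad regions also occurred on sequence outside the arms and chromosome 4, which the comparisons above do not use. On U, the sequence not placed on any chromosome, 14 of 63 regions of the whole-series list were 600 bp or more, or 22.2% (exact interval 12.7% to 34.5%), against 6.01% on the arms and chromosome 4 (5.46% to 6.60%). In the replicate 1 list, 9 of 136 peaks on U were that wide (6.62%, interval 3.07% to 12.2%). In the replicate 2 list, 20 of 245 were (8.16%, 5.06% to 12.3%). On the arms and chromosome 4 the counts were 346 of 10356 peaks in replicate 1 and 223 of 8171 in replicate 2. The shares there were 3.07% and 2.56% on the 4 large autosomal arms and 4.48% and 3.40% on X. The widest U region of the whole-series list had 1704 bp. On the Het scaffolds the share was 3 of 48 regions (6.25%, interval 1.31% to 17.2%). No input values were analysed here, and why U differs was not tested.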

How the results depend on the processing

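Of 57 alternative values, 27 stayed within the spread of the replicates, the exact interval or 1.5 times the main count, and 30 moved further. For the ratios that spread is the SD of 2 single-replicate values, which are themselves among the 57. It was as small as 0.0118, for the distance to the nearest region, so the counts do not measure robustness. No ratio crossed 1. Except where a smaller list shows it, the cause was not tested. The number of broad regions was 721 at 500 bp, 164 at 800 bp and 275 in the higher-scoring 50%. It was 172 with at least 1 wide peak in each replicate, 1266 with regions within 1 kb joined, and 223 to 346 in 1 replicate alone. The X ratio was 1.77 at 800 bp, 1.26 in the higher-scoring 50%, 1.26 where each replicate covers 50% of a region and 1.15 after joining. The score ratio was 1.16 to 1.25 in 1 replicate alone. The share with 1 peak of each replicate was 73.9% at 500 bp and 56.1% at 800 bp. The ratio of distances to the nearest region was 0.420 at 800 bp, 0.570 in the higher-scoring 50% and 0.499 under the coverage rule. It was 0.408 with at least 1 wide peak in each replicate and 0.561 to 0.577 in 1 replicate alone. Between centres the ratio was 0.794, downstream 0.583 and without the densest windows 0.649. To the nearest broad region it was 0.339 at 500 bp, 0.402 in the higher-scoring 50%, 0.134 to 0.236 in 1 replicate alone, 0.585 downstream and 0.323 without those windows. The share of wide peaks with a wide partner, 64.2% as the mean of both directions, was 69.7% at 500 bp and 50% to 78.5% by direction. Unknown depth limits every width, since a peak's edges depend on the reads behind it.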

Other observations

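Counting error did not separate the share of broad regions at the ends of the arms, pooled over arms, from that in the interior. In the 2 Mb nearest the telomere of the 5 major arms, taken from the known orientation of the arms, 50 of 649 regions were broad (7.70%, interval 5.77% to 10%), and in the 2 Mb nearest the centromere 21 of 327 were (6.42%, 4.02% to 9.65%). In the interior the share was 5.82% (344 of 5907, interval 5.24% to 6.45%), so the intervals overlap. By arm, the share at the telomere end ran from 3 of 106 regions on 3R (2.83%, 0.588% to 8.05%) to 18 of 149 on 2L (12.1%, 7.32% to 18.4%). At the centromere end it ran from 0 of 29 on 2R, which allows a share of up to 10.3%, to 5 of 33 on 3L (15.2%, 5.11% to 31.9%). Only the interval of the 2L telomere end did not overlap that of the interior of its own arm, 5.37% (4.01% to 7.02%). A single 100 kb window at that end, from 1100001 to 1200000, held 8 broad regions. None of these differences was tested.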
